A study of Mus musculus with 10 samples.

Results

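Stable knockdown of *Creb3l1* in AtT20 corticotroph cells was accompanied by altered mRNA levels of many ion channel genes. Of 72 channel genes with enough reads to test, 38 changed, 22 upward and 16 downward. Leaving aside genes with a mean under 20 counts, the largest decreases were in *Kcnj11*, the pore subunit of the ATP-sensitive potassium channel (5.10-fold), in *Kcnd3*, which encodes Kv4.3 (4.47-fold), and in *Cacnb1*, a calcium channel β subunit (2.48-fold). The largest increases were in the potassium channel genes *Kcnq5* (3.56-fold) and *Kcnc1* (2.02-fold), followed by *Cacna1a*, the pore subunit of P/Q-type calcium channels (1.69-fold). As a background, 40.7% of all 14336 genes tested passed the same threshold, 20.6% upward and 20.1% downward.

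The genes described are the voltage-gated calcium, sodium and HCN channel genes and the potassium channel genes of the mouse, taken by symbol (*Cacna*, *Cacnb*, *Cacng*, *Kcn*, *Hcn* and *Scn* families, auxiliary subunits included) after non-coding names such as *Kcnq1ot1* were dropped. They number 138 of the 53801 genes in the count table. The study measured mRNA by RNA sequencing in AtT20/D16v-F2 cells, a mouse corticotroph line derived from a pituitary tumour, to look for genes that depend on the transcription factor Creb3l1. One group of 5 libraries came from cells that stably carried a lentivirus expressing *Creb3l1*-shRNA1, a short hairpin RNA against *Creb3l1*, and is called knockdown here. The other 5 libraries came from cells that stably carried a lentivirus with a non-targeting shRNA, and are called control. Both groups therefore share the cell line, the lentiviral transduction and the culture conditions, and a single stable line stands for each shRNA. The study's methods call the replicates of all experiments biological. With a single stable line for each shRNA, the p-values measure the spread between samples of these lines.

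Voltage-gated calcium (Cav) and sodium (Nav) channels open when the membrane depolarises. A Cav channel is built around a pore-forming α1 subunit, to which an intracellular β subunit and an α2δ subunit bind, and both of these help to bring the channel to the cell surface. Potassium channels let potassium leave the cell and so oppose depolarisation: Kv channels open with voltage, BK and SK channels with intracellular calcium, and inward rectifiers (Kir) and two-pore-domain channels set the resting potential. HCN channels open on hyperpolarisation and carry a depolarising pacemaker current. In corticotrophs, calcium entry during electrical activity triggers the secretion of ACTH, the hormone made from pro-opiomelanocortin.

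Library depth was between 17420698 and 22205107 counts. Values below are TMM-normalised counts, that is, counts divided by the effective size of their library and scaled back to a mean library, given as mean ± SD with n = 5 for each line. The knockdown was seen in the libraries, in which *Creb3l1* fell from 3689 ± 148 to 1090.0 ± 59.2 (log2 fold change -1.76, SE 0.036, adjusted p = 2.05e-33), with control libraries between 3531 and 3864 and knockdown libraries between 1014 and 1159. Of the 7 corticotroph markers, *Pomc*, *Tbx19*, *Neurod1*, *Pitx1* and *Pcsk1* were abundant, *Crhr1* was low (29.2 ± 6.09 in control and 26.9 ± 10.3 in knockdown libraries) and *Avpr1b* had no count. All 5 abundant markers passed the threshold used for the channel genes, with *Pomc*, *Pcsk1* and *Tbx19* lower in knockdown libraries (log2 fold change -0.51, -0.46 and -0.27) and *Neurod1* and *Pitx1* higher (0.62 and 0.36), and their part in the channel results was not tested. By quantitative PCR the paper found *Pomc* mRNA unchanged in its knockdown lines, which differs from the decrease in these counts. Of 25 markers of other cell types, 8 had no count (*Prl*, *Tshb*, *Fshb*, *Gnrhr*, *Drd2*, *Lum*, *Cdh5* and *Ptprc*), 2 had a mean of 50 or more (*Pcsk2* and *Nr5a1*), and the 25 together summed to between 450.4 and 490.3 in control and between 448 and 520.2 in knockdown libraries. Most of each sum was *Pcsk2*, at 288 ± 12.9 in control and 343 ± 20.8 in knockdown libraries, so the sums say little of the other markers. Of the 25 markers, *Pcsk2* was higher (log2 fold change 0.25) and the rare *Pecam1* lower (-1.08) in knockdown libraries at the same threshold. One control library, replicate 3, held 4.13% of its counts in *Gm42418* against 0.106% to 0.191% in the other 9, and leaving it out ended the call of 1 channel gene, *Kcnab2*.

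The 2 shRNA target sequences, which define the groups, read as follows.
Creb3l1-shRNA1: gagtcggatttcctcaacaat
Non-targeting shRNA: atcatgttaggcgtacggact

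Promoter windows of 4 channel genes are shown because Creb3l1 is described as binding G-box elements, whose core is GACGTG, and because these genes either held that word or were among those with the largest changes. Windows run from 250 bases before to 50 bases after an annotated start (RefSeq, GRCm38.p6) and are written 5′ to 3′ on the strand of the gene. Capitals mark the G-box core, which in both windows that hold it lies on the strand opposite to the gene and so reads as its complement. The window of *Kcnh6* (chr11:106007898-106008197, plus strand) holds it at position -203 relative to the start and that of *Kcnab2* (chr4:152477500-152477799, minus strand) at -177. The windows of *Kcnc1* (chr7:46396218-46396517, plus strand) and *Cacnb1* (chr11:98022578-98022877, minus strand, one of its 2 windows) hold none.
Kcnh6: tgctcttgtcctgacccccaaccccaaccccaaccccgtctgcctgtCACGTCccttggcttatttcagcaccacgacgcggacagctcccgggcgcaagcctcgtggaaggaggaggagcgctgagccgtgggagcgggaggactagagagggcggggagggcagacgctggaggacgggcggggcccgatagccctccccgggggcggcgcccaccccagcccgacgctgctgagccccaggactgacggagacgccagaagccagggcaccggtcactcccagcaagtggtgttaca
Kcnab2: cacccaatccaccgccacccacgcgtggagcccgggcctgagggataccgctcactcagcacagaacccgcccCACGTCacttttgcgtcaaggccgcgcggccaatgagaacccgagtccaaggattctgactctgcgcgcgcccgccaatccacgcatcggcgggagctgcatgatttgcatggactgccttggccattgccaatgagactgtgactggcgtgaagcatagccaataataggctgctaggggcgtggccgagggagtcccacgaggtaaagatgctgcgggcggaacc
Kcnc1: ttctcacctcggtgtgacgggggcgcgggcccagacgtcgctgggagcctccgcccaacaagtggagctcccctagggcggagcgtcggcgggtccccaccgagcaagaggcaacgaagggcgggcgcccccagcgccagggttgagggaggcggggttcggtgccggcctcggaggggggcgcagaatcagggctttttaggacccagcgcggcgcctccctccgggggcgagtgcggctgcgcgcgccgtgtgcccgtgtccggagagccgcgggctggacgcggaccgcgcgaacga
Cacnb1: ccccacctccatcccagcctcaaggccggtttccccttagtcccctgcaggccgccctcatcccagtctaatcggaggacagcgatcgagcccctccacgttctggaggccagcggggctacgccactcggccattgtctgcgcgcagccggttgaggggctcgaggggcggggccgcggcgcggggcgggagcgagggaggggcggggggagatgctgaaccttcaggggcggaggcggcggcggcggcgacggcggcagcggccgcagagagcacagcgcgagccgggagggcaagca

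The G-box core was found in few windows of channel genes. On either strand, GACGTG was found for 4 of the channel genes with a promoter entry (3.96%), against 7.15% of all 27025 genes with one, and 37 of the 138 channel genes had no entry. Besides *Kcnh6* and *Kcnab2*, both higher in knockdown cells, it was found for *Kcna6* and *Kcnj13*, which were not tested. *Kcnh6* and *Kcnab2* were 2 of the 16 higher genes with an entry (12.5%). None of the 10 lower genes with an entry and none of the 21 tested genes that did not pass the threshold held the core. These groups are small, and their shares were not tested against that of all genes. The palindrome CACGTG was found for 6 of the channel genes with an entry (5.94%) against 8.09% of all genes, and none of these 6 was called. The cAMP response element TGACGTCA, also a palindrome, was found for none of the channel genes and for 2.03% of all genes. No stretch of bases can be more than one of the 3 words, a match is only a match of letters, and *Kcnj11*, *Abcc8* and *Cacna1a* had no promoter entry.

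Of the 138 channel genes, 33 had no count in any library, which over all libraries allows up to 0.0148 CPM for each (3 counts, counting error only), and 33 more had too few counts to test. Of the 72 tested, 38 (52.8%) passed an adjusted p of 0.01 (quasi-likelihood test of edgeR, adjusted over all genes by the method of Benjamini and Hochberg), beside the 40.7% of all genes given above. For 34 of the 72 channel genes (47.2%), the ranges of the lines were separate, 19 with all knockdown libraries above the control libraries and 15 with all of them below. The same held for 36% of all genes tested, 18.3% upward and 17.8% downward. The median log2 fold change of the tested channel genes was 0.04, against -0.0025 for all genes, so that gains and losses were nearly balanced. The median size of the change regardless of sign was 0.26 against 0.15 for all genes on the log2 scale. In bulk RNA, fewer cells that express a gene and less RNA of it per cell cannot be told apart.

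The share of channel genes called was also read within bands of depth. The median of their mean normalised counts was 463, against 594 for all genes tested. When all genes were divided by mean count into 4 bands of equal size, 5 of the 21 channel genes in the lowest band were called (23.8%, against 21.2% of all genes there), 12 of 19 in the next (63.2% against 38.2%), 12 of 18 in the third (66.7% against 47.4%) and 9 of 14 in the highest (64.3% against 56.0%). A change of at least 1.5-fold was found for 11 of the called channel genes (15.3% of those tested), against 7.73% of all genes. Of these, 6 were higher (3.28% of all genes) and 5 were lower (4.45% of all genes). At least 2-fold changes were found for 6 channel genes, *Kcnq5* and *Kcnc1* upward and *Kcnj11*, *Kcnd3*, *Cacna2d4* and *Cacnb1* downward, beside 3.05% of all genes. Of the 13 subfamilies with a tested gene, 8 held both increases and decreases, and the plot of log2 fold changes by subfamily shows most of these genes.

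**Figure D1:**
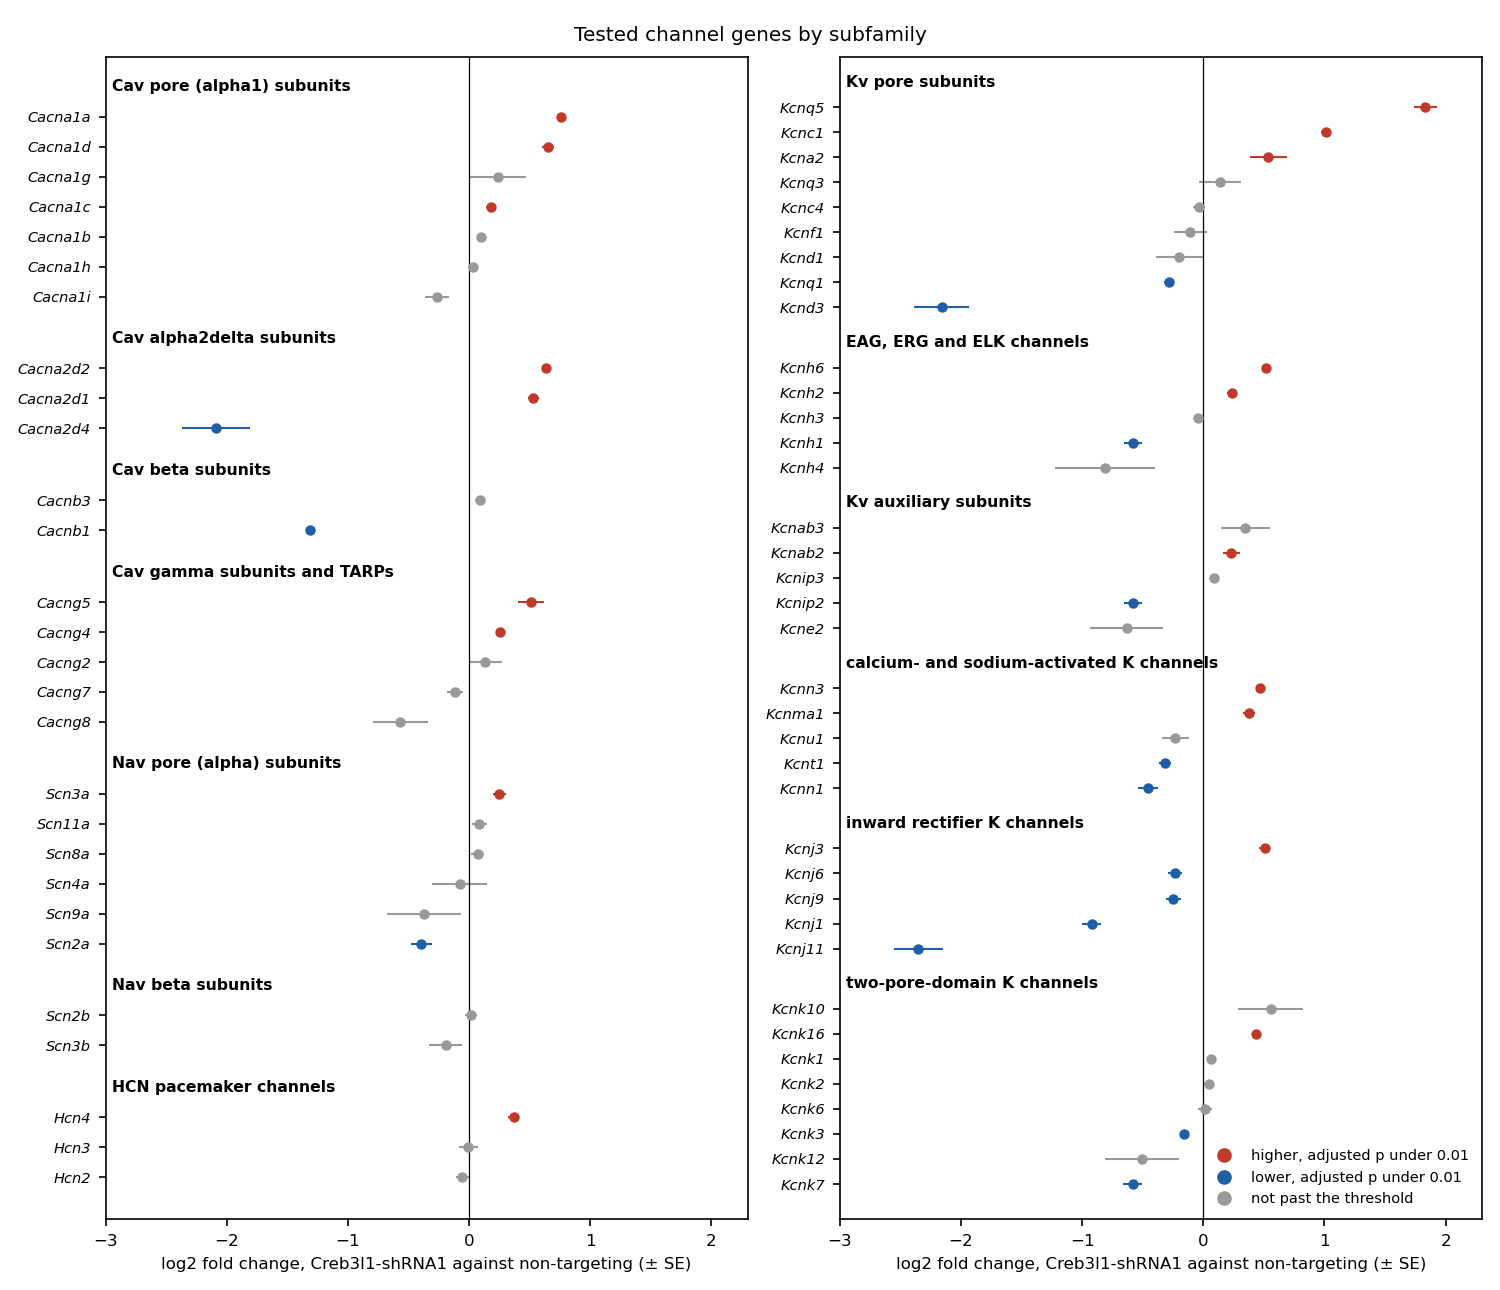
Log2 fold change (knockdown against control, ± SE, 5 libraries per line) of 65 of the 72 tested channel genes, grouped by subfamily, red for higher and blue for lower at an adjusted p under 0.01 (edgeR) and grey for the rest. The 19 red points reach 1.83 for *Kcnq5* and the 15 blue points reach -2.35 for *Kcnj11*, and the Cav pore, Cav γ and HCN subfamilies hold no blue point.

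Transcripts of the pore-forming Cav subunits rose or did not pass the test. Of 10 α1 genes 7 were tested, 3 rose and none fell. The share called was close to the 40.7% of all genes tested (20.6% upward and 20.1% downward). *Cacna1a* (ENSMUSG00000034656, chr8:84388440-84640246, plus strand, GRCm38), the Cav2.1 subunit of P/Q-type channels that drive transmitter and hormone release, had normalised counts of 1658, 1633, 1551, 1439 and 1491 in the control libraries and 2576, 2656, 2794, 2491 and 2634 in the knockdown libraries. The lowest knockdown library was far above the highest control library (log2 fold change 0.76, SE 0.037, adjusted p = 1.68e-19). *Cacna1d*, the Cav1.3 subunit of L-type channels that open at fairly negative potentials, had counts of 505, 497, 507, 479.8 and 435 in the control libraries and 752, 776, 784, 714 and 769.7 in the knockdown libraries. It too rose without overlap (log2 fold change 0.65, SE 0.048, adjusted p = 8.25e-15). *Cacna1c*, the Cav1.2 L-type subunit, was at 953 ± 49.6 in control and 1083 ± 48.6 in knockdown libraries, and with a knockdown library at 1005 below a control library at 1014 the lines overlapped (log2 fold change 0.18, SE 0.041, adjusted p = 0.00026). Its call was lost when offsets for the GC content and length of transcripts were added (log2 fold change 0.07, adjusted p = 0.14).

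The other Cav pore genes did not pass the threshold. The N-type gene *Cacna1b* was at 1648 ± 50.3 in control and 1763 ± 92.6 in knockdown libraries (log2 fold change 0.10, SE 0.035, adjusted p = 0.018). The T-type genes, which open near the resting potential, were *Cacna1h* at 1008 ± 39.4 in control and 1031 ± 40.6 in knockdown libraries (95% interval of the log2 fold change -0.05 to 0.11), *Cacna1i* at 129 ± 13.6 in control and 106.9 ± 5.69 in knockdown libraries (adjusted p = 0.027) and *Cacna1g* at 19.9 ± 3.60 in control and 23.5 ± 4.78 in knockdown libraries (adjusted p = 0.41). *Cacna1e*, *Cacna1f* and *Cacna1s* had too few counts to test. Levels per kilobase of exon allow a rough comparison between genes. The length counts every annotated exon of a gene, and which exons these cells use was not measured. Levels and shares compared between genes therefore depend on the annotation. Per kilobase, the summed α1 level was 504 ± 17.7 in control and 638 ± 25.5 in knockdown libraries. The share of *Cacna1a* in that sum went from 27.0% ± 0.717 to 36.1% ± 0.395, and that of *Cacna1b* from 32.9% ± 0.723 to 27.8% ± 0.678. In control libraries *Cacna1b* thus had the largest share of the α1 sum and in knockdown libraries *Cacna1a* did, with no overlap between the lines for either share.

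The accessory Cav subunits moved in opposite directions. Both abundant α2δ genes rose and *Cacnb1*, the β gene with the highest level per kilobase in control libraries, fell. *Cacna2d1*, whose product α2δ1 promotes surface expression of Cav channels and binds gabapentin, had counts of 5081, 5191, 5244, 5015 and 5371 in the control libraries and 8165, 6609, 7557, 7265 and 7831 in the knockdown libraries. The lowest knockdown library, at 6609, was above the highest control library, at 5371 (log2 fold change 0.53, SE 0.049, adjusted p = 2.01e-06). *Cacna2d2* went from 2116 ± 38.4 to 3286 ± 168, likewise without overlap (log2 fold change 0.63, SE 0.032, adjusted p = 2.87e-20). *Cacna2d4*, a subunit known from photoreceptors, was rare and fell from 30.6 ± 7.53 to 6.94 ± 1.80 (log2 fold change -2.09, SE 0.28, adjusted p = 3.75e-08). *Cacna2d3* had no count.

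*Cacnb1* (ENSMUSG00000020882, chr11:98001508-98023034, minus strand), the β1 subunit, had normalised counts of 1927, 1901, 1753, 1807 and 1869.8 in the control libraries and 690.0, 772, 747, 758 and 767 in the knockdown libraries. The lines were far apart (log2 fold change -1.31, SE 0.038, adjusted p = 2.12e-28), and the log2 fold change was between -1.33 and -1.26 in all 17 alternatives. *Cacnb3*, the only other β gene with enough counts, was at 1189 ± 18.8 in control and 1264 ± 73.6 in knockdown libraries and missed the threshold (log2 fold change 0.09, SE 0.038, adjusted p = 0.049), though it passed with the GC and length offsets (log2 fold change 0.15). Of the summed β level per kilobase, the share of *Cacnb1* went from 57.9% ± 0.976 to 34.3% ± 1.23 and that of *Cacnb3* from 42.0% ± 0.977 to 65.6% ± 1.24. The sum itself was 706 ± 16.9 in control and 480.5 ± 22.6 in knockdown libraries. *Cacnb2* had no count and *Cacnb4* had 31 counts over the 10 libraries.

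Among γ subunits and the related TARPs, which are better known as partners of AMPA receptors, *Cacng4* rose from 1526 ± 62.3 to 1819 ± 70.9 (log2 fold change 0.25, SE 0.034, adjusted p = 4.69e-08) and *Cacng5* from 98.7 ± 9.15 to 141 ± 21.2 (log2 fold change 0.51, SE 0.11, adjusted p = 0.00011). The lines did not overlap for either gene. *Cacng2*, *Cacng7* and *Cacng8* did not pass the threshold (adjusted p = 0.43, 0.14 and 0.034).

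The RGK proteins are small GTP-binding proteins that bind Cav β subunits and inhibit the channels. All 3 that could be tested fell, beside 20.1% of all genes tested. *Rem1* had counts of 99.6, 124, 105.1, 131 and 115 in the control libraries and 43.2, 36.4, 40.4, 31.3 and 48.2 in the knockdown libraries (log2 fold change -1.52, SE 0.13, adjusted p = 1.09e-12). *Gem* fell from 208 ± 13.4 to 127 ± 14.5 (log2 fold change -0.72) and *Rem2* from 332 ± 18.5 to 268 ± 20.8 (log2 fold change -0.32), and the lines did not overlap for any of the 3. The plot of calcium channel subunits per kilobase sets these beside the channel subunits themselves.

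**Figure D2:**
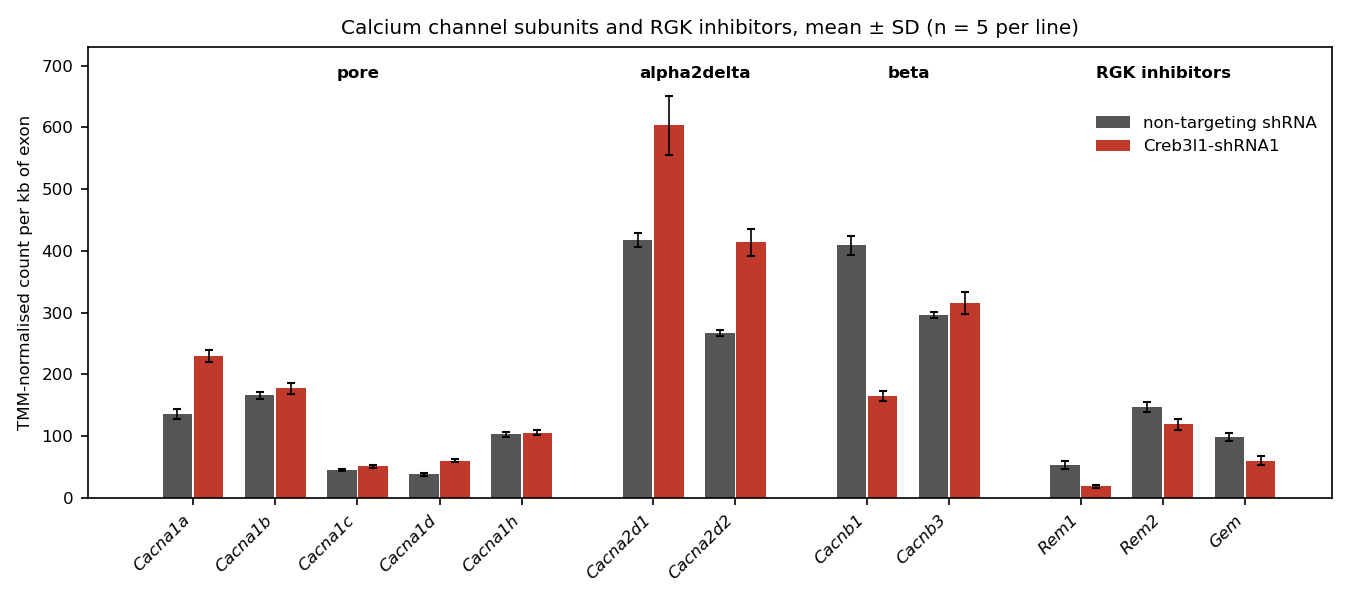
TMM-normalised count per kilobase of exon (mean of 5 libraries, error bars SD) of Cav pore, α2δ and β subunit genes and of the RGK inhibitors, grey for control and red for knockdown. *Cacna1a* and both α2δ genes stand higher in knockdown libraries, while *Cacnb1* and the 3 RGK genes stand lower.

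Of 7 Nav α genes tested, 1 rose and 1 fell, beside 20.6% of all genes tested upward and 20.1% downward. With only 7 genes, the share called cannot be told apart from that of all genes. *Scn3a*, the Nav1.3 subunit, went from 492 ± 18.7 to 584 ± 42.3 (log2 fold change 0.25, SE 0.053, adjusted p = 0.00014), a call that was lost with the GC and length offsets (log2 fold change 0.11, adjusted p = 0.067). *Scn2a*, the Nav1.2 subunit, had counts of 174, 211, 219, 205 and 185 in the control libraries and 154, 141, 164, 135 and 159.9 in the knockdown libraries. It fell (log2 fold change -0.39, SE 0.088, adjusted p = 0.00023), and the log2 fold change was between -0.52 and -0.35 over the alternatives. These genes lie 53143 bases apart on chromosome 2. *Scn8a* was at 563 ± 20.3 in control and 591 ± 41.0 in knockdown libraries (log2 fold change 0.07, SE 0.051, adjusted p = 0.26). *Scn11a*, the Nav α gene with the highest level per kilobase, was at 418 ± 34.6 in control and 444 ± 35.3 in knockdown libraries (log2 fold change 0.08, SE 0.063, adjusted p = 0.28). *Scn9a* was at 15.5 ± 6.04 in control and 11.7 ± 3.80 in knockdown libraries and did not pass (adjusted p = 0.33), nor did *Scn4a*.

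Among the Nav β genes, whose products modulate channel gating and cell adhesion, *Scn2b* was at 669.6 ± 50.5 in control and 678 ± 36.7 in knockdown libraries (95% interval of the log2 fold change -0.08 to 0.12), and *Scn3b* did not pass the threshold.

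Among the HCN genes, *Hcn4*, the slow pacemaker subunit of the heart, rose from 743 ± 33.7 to 959 ± 40.5 without overlap (log2 fold change 0.37, SE 0.043, adjusted p = 1.52e-09). *Hcn2* was at 1609.6 ± 119 in control and 1549.9 ± 106.8 in knockdown libraries (log2 fold change -0.06, SE 0.055, adjusted p = 0.43), and *Hcn3* was at 232 ± 19.3 in control and 232 ± 18.4 in knockdown libraries.

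The inward rectifiers held the largest decrease. All 5 Kir genes with enough counts changed, 4 of them downward, beside 40.7% of all genes tested in either direction and 20.1% downward. *Kcnj11* (ENSMUSG00000096146, chr7:46093953-46100764, minus strand) encodes Kir6.2, the pore of the ATP-sensitive (KATP) channel that links metabolism to excitability. Its normalised counts were 69.4, 54.0, 56.2, 62.0 and 64.1 in the control libraries and 10.1, 10.7, 11.7, 17.1 and 10.0 in the knockdown libraries. The lines did not overlap and the counts were low in both (log2 fold change -2.35, SE 0.20, adjusted p = 6.08e-13), so that the size of the change is less certain than for deeper genes. The fold change was between -2.52 and -2.29 on the log2 scale over all alternatives.

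*Abcc8*, which encodes the sulfonylurea receptor SUR1 and pairs with Kir6.2 to form the KATP channel, is not a channel gene by symbol but fell with it. Its counts were 573, 607, 593, 589 and 577 in the control libraries and 95.6, 112, 122, 78.6 and 91.8 in the knockdown libraries. This 5.90-fold decrease (log2 fold change -2.56, SE 0.080, adjusted p = 3.06e-27) rests on many more reads than that of *Kcnj11*. *Abcc8* (chr7:46104523-46180033, minus strand) lies 3758 bases from *Kcnj11* on chromosome 7, and *Kcnc1* (chr7:46396497-46438704, plus strand), which rose, lies 216463 bases from *Abcc8*. The other KATP subunit genes were at the limit of detection: *Kcnj8* had no count and *Abcc9* had 54 counts over the 10 libraries.

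*Kcnj1*, the ROMK channel of the kidney tubule, fell from 305 ± 16.1 to 161 ± 16.1 (log2 fold change -0.92, SE 0.079, adjusted p = 5.18e-13). The genes of G-protein-gated (GIRK) channels, through which somatostatin and other inhibitory receptors quiet pituitary cells, diverged. *Kcnj3*, the GIRK1 subunit, had counts of 690.0, 605, 752, 685 and 674 in the control libraries and 985, 897, 994, 984 and 975 in the knockdown libraries. It rose without overlap (log2 fold change 0.51, SE 0.046, adjusted p = 2.37e-12). *Kcnj6*, the GIRK2 subunit, fell from 518 ± 23.9 to 439 ± 34.3 (log2 fold change -0.24, SE 0.058, adjusted p = 0.00066), and *Kcnj9*, the GIRK3 subunit, from 476 ± 38.9 to 401 ± 30.6 with some overlap (log2 fold change -0.25, SE 0.063, adjusted p = 0.0011). Of the summed GIRK level per kilobase, the share of *Kcnj3* went from 42.2% ± 2.09 to 55.1% ± 1.66, while those of *Kcnj6* and *Kcnj9* went from 21.9% ± 1.29 to 17.1% ± 1.44 and from 35.9% ± 2.18 to 27.8% ± 1.71. *Kcnj5*, the GIRK4 subunit, had 1 count and *Kcnj2*, the Kir2.1 gene, had none. Exons of *Kcnj3* overlap those of the opposite-strand gene *Gm26794* over 31.1% of their length, and whether the counting used the strand is not given in the sources used here, so reads of the 2 genes may not be separated.

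**Figure D3:**
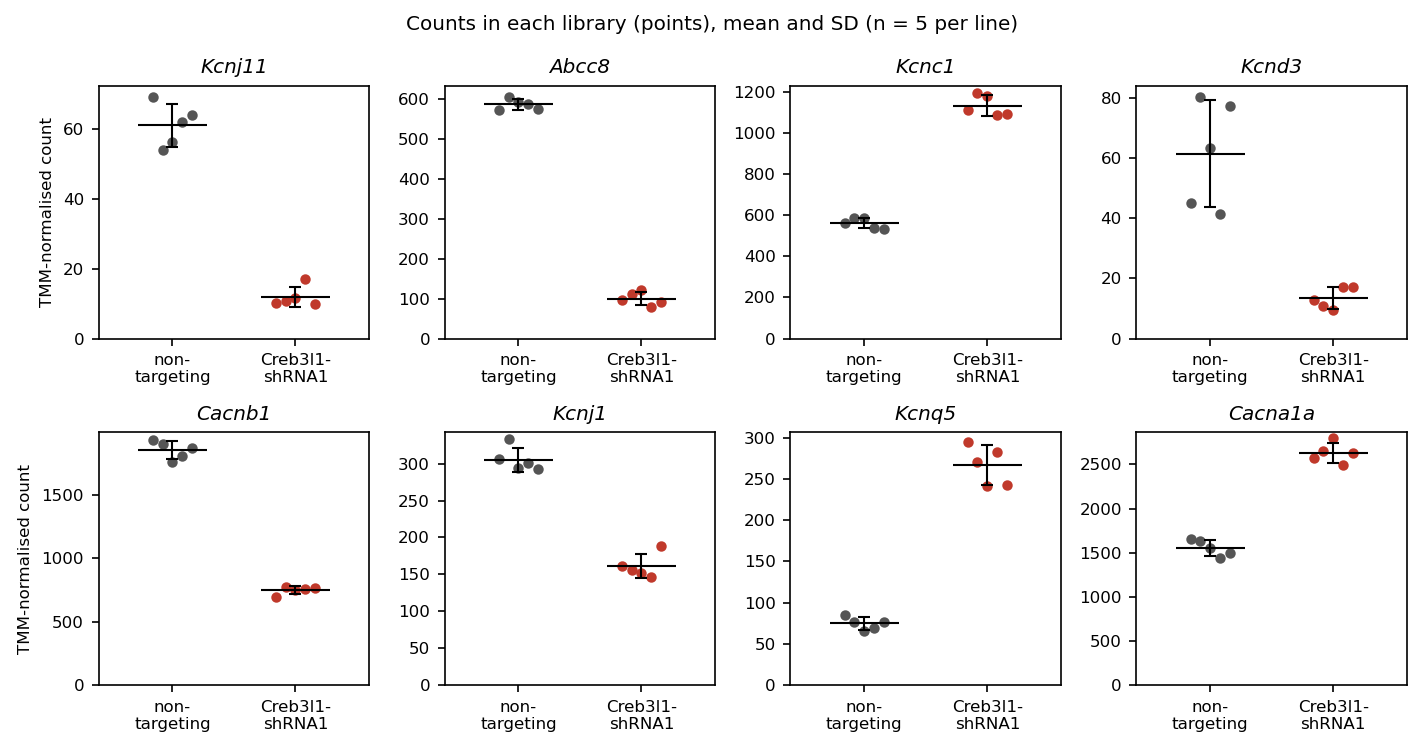
TMM-normalised count in each library (points) with mean and SD (bars, n = 5) for *Kcnj11*, its partner *Abcc8*, *Kcnc1*, *Kcnd3*, *Cacnb1*, *Kcnj1*, *Kcnq5* and *Cacna1a*, grey for control and red for knockdown, each axis starting at 0. In all 8 panels the 5 knockdown libraries lie wholly to one side of the 5 control libraries, below for *Kcnj11*, *Abcc8*, *Kcnd3*, *Cacnb1* and *Kcnj1* and above for *Kcnc1*, *Kcnq5* and *Cacna1a*.

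The voltage-gated potassium channels showed both the largest increases and the second largest decrease among the channel genes. Of 32 Kv pore genes 13 were tested, 5 rose and 2 fell, beside 20.6% of all genes tested upward and 20.1% downward. *Kcnq5* (ENSMUSG00000028033, chr1:21398403-21961942, minus strand), a Kv7 subunit that contributes to the M-current restraining repetitive firing, had counts of 85.5, 76.3, 66.0, 69.5 and 76.4 in the control libraries and 295, 271, 241, 283 and 243 in the knockdown libraries. The lowest knockdown library, at 241, was far above the highest control library, at 85.5 (log2 fold change 1.83, SE 0.095, adjusted p = 9.79e-20). Its share of the summed Kv7 (*Kcnq*) level per kilobase was small in both lines, 1.02% ± 0.0937 in control and 3.47% ± 0.309 in knockdown libraries. The Kv7 sum itself was 957 ± 18.0 in control and 999.5 ± 17.6 in knockdown libraries. *Kcnq1*, which pairs with KCNE subunits in heart and epithelia, fell from 1026 ± 44.7 to 843 ± 48.2 (log2 fold change -0.28, SE 0.043, adjusted p = 4.32e-07). *Kcnq3* did not pass the threshold (adjusted p = 0.54).

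*Kcnc1*, which encodes Kv3.1, a fast delayed rectifier that shortens action potentials, had counts of 562, 589, 589, 539.9 and 534 in the control libraries and 1115, 1198, 1181, 1089.6 and 1093 in the knockdown libraries. The lowest knockdown library, at 1089.6, was far above the highest control library, at 589 (log2 fold change 1.01, SE 0.044, adjusted p = 1.81e-22). *Kcnc4*, which encodes Kv3.4, was at 574 ± 30.8 in control and 561 ± 27.1 in knockdown libraries and did not pass the threshold. *Kcna2*, the Kv1.2 gene, was at 53.4 ± 14.0 in control and 77.0 ± 12.9 in knockdown libraries with overlap between the lines (log2 fold change 0.54, SE 0.16, adjusted p = 0.0037). Its call was lost with DESeq2 (adjusted p = 0.012), with the GC and length offsets (adjusted p = 0.021) and without control replicate 1, control replicate 4 or knockdown replicate 2 (adjusted p between 0.014 and 0.023).

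*Kcnd3* (ENSMUSG00000040896, chr3:105452330-105674002, plus strand), the Kv4.3 subunit of A-type channels that inactivate fast and delay firing, had counts of 45.3, 80.5, 63.6, 41.3 and 77.3 in the control libraries and 12.9, 10.7, 9.57, 17.1 and 17.3 in the knockdown libraries. The control libraries varied between 41.3 and 80.5, but the highest knockdown library was at 17.3 (log2 fold change -2.16, SE 0.23, adjusted p = 1.34e-10). *Kcnip2*, an auxiliary subunit (KChIP2) that binds Kv4 channels and raises their current, fell as well, from 292 ± 15.4 to 196 ± 17.0 (log2 fold change -0.58, SE 0.076, adjusted p = 2.51e-08). *Kcnip3*, the KChIP also known as DREAM, was at 1929 ± 42.0 in control and 2053 ± 60.2 in knockdown libraries and missed the threshold (log2 fold change 0.09, SE 0.031, adjusted p = 0.014). *Dpp6*, another Kv4 partner, was at 361 ± 25.7 in control and 346 ± 24.2 in knockdown libraries (adjusted p = 0.45), *Dpp10* had 1 count over the 10 libraries, *Kcnd1* did not pass the threshold and *Kcnd2* had no count. *Kcnab2*, a Kv β subunit, was at 236 ± 13.7 in control and 277 ± 11.4 in knockdown libraries (log2 fold change 0.23, SE 0.072, adjusted p = 0.0067), a call that was lost in 8 of 17 alternatives.

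Among the EAG and ERG channels, *Kcnh6* (ERG2) and *Kcnh2* (ERG1), whose currents shape firing in pituitary cells, rose and *Kcnh1* (EAG1) fell. *Kcnh6* had counts of 2335, 2628, 2443, 2341 and 2457 in the control libraries and 3514, 3552, 3488, 3468 and 3488 in the knockdown libraries. The knockdown libraries, between 3468 and 3552, were all above the control libraries (log2 fold change 0.52, SE 0.030, adjusted p = 2.97e-18). *Kcnh2* went from 1507 ± 62.6 to 1773 ± 71.8 (log2 fold change 0.23, SE 0.035, adjusted p = 2.86e-07). *Kcnh1* fell from 362 ± 26.6 to 242 ± 28.2 (log2 fold change -0.58, SE 0.076, adjusted p = 1.94e-08). *Kcnh3* was at 1407 ± 70.1 in control and 1369.8 ± 29.8 in knockdown libraries and *Kcnh4* at 12.2 ± 4.16 in control and 6.93 ± 4.21 in knockdown libraries, and neither passed (adjusted p = 0.37 and 0.10).

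The calcium-activated potassium channels also moved both ways. *Kcnma1*, the BK channel pore, which repolarises the action potential and sets bursting in corticotrophs, had counts of 622, 753, 672, 671 and 755 in the control libraries and 967, 849.8, 894, 867 and 937 in the knockdown libraries. It rose (log2 fold change 0.38, SE 0.049, adjusted p = 4.14e-08). No BK β gene was detectable: *Kcnmb1*, *Kcnmb3* and *Kcnmb4* had no count and *Kcnmb2* had 1. Among the SK channels, *Kcnn3* (SK3) rose from 1172 ± 50.9 to 1623 ± 68.8 (log2 fold change 0.47, SE 0.037, adjusted p = 3.32e-14), whereas *Kcnn1* (SK1) fell from 257 ± 27.1 to 187 ± 18.5 (log2 fold change -0.46, SE 0.085, adjusted p = 1.68e-05) and *Kcnn2* had 5 counts in all. The share of *Kcnn3* in the summed SK level per kilobase went from 66.7% ± 2.90 to 79.2% ± 1.35. *Kcnt1*, a sodium-activated channel, fell from 800.1 ± 51.6 to 643 ± 36.7 (log2 fold change -0.32, SE 0.048, adjusted p = 4.84e-07).

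Two-pore-domain channels carry the background potassium conductance. *Kcnk1* (TWIK1) had the highest level per kilobase of any channel gene, 1473 ± 23.3 in control and 1542 ± 23.8 in knockdown libraries. Its normalised counts did not overlap between the lines, yet the difference of 1.05-fold missed the threshold (log2 fold change 0.07, SE 0.026, adjusted p = 0.032). *Kcnk16* (TALK1), known from pancreatic β cells, had counts of 1580.2, 1568, 1649, 1563 and 1578 in the control libraries and 2047, 2226, 2104, 2204 and 2127 in the knockdown libraries. It rose without overlap (log2 fold change 0.43, SE 0.032, adjusted p = 5.82e-15). *Kcnk3* (TASK1), an acid-sensitive background channel, fell from 2776 ± 113 to 2485 ± 129.5 (log2 fold change -0.16, SE 0.034, adjusted p = 0.00012), and *Kcnk7* fell from 272 ± 16.4 to 181 ± 13.2 (log2 fold change -0.58, SE 0.078, adjusted p = 3.58e-08). *Kcnk2* (TREK1), which sets resting potential in corticotrophs, was at 711 ± 27.2 in control and 735 ± 43.8 in knockdown libraries (95% interval of the log2 fold change -0.04 to 0.14), and *Kcnk6*, *Kcnk10* and *Kcnk12* did not pass.

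The plot of family make-up gives the shares within 6 families side by side. These shares are mRNA levels per kilobase and not channel numbers.

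**Figure D4:**
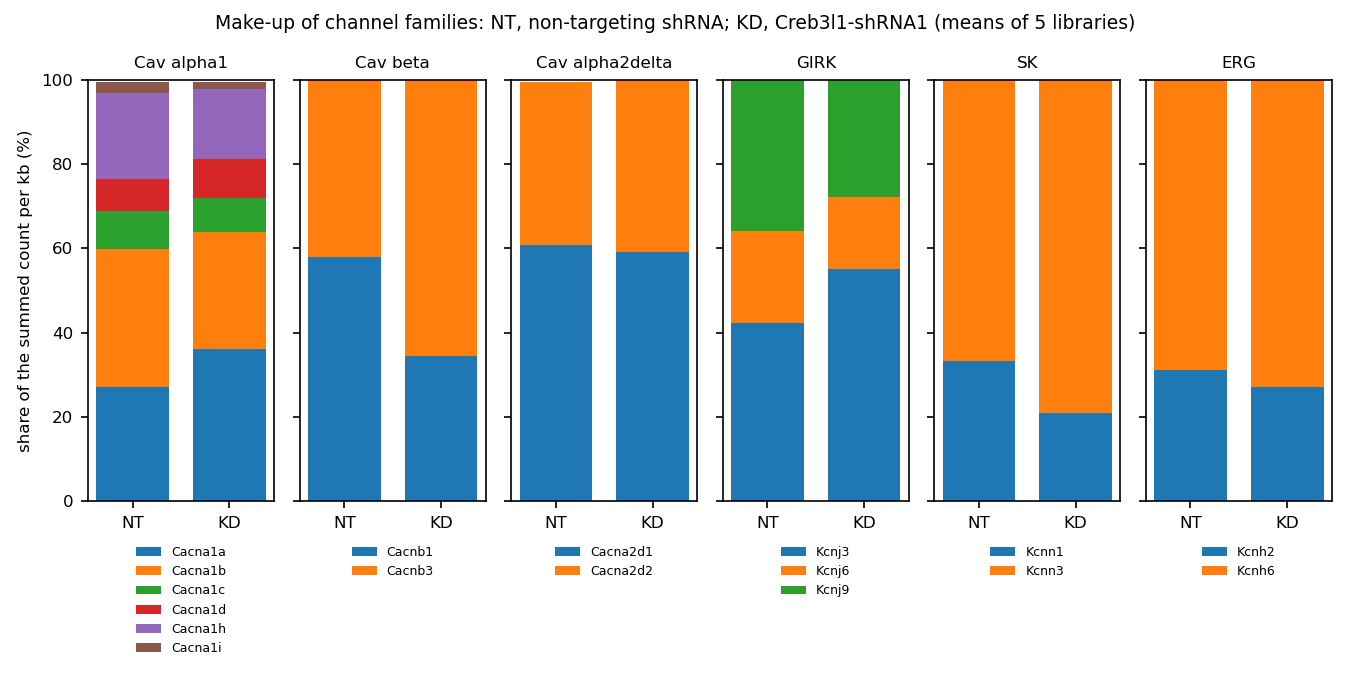
Share of each gene (percent of the summed TMM-normalised count per kilobase of exon, mean of 5 libraries) in 6 channel families, control (NT) and knockdown (KD), with genes under 1% in both lines not drawn. Among the shifts are the smaller share of *Cacnb1* (57.9% to 34.3%) and the larger shares of *Cacna1a* (27.0% to 36.1%), *Kcnj3* (42.2% to 55.1%) and *Kcnn3* (66.7% to 79.2%). *Cacnb3* (42.0% to 65.6%) and *Kcnn1* (33.2% to 20.8%), which make up nearly all the rest of their families, moved the opposite way to *Cacnb1* and *Kcnn3*.

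Summed over all channel genes, channel transcripts took between 0.301% and 0.323% of the counts in control libraries and between 0.346% and 0.365% in knockdown libraries. The sum per kilobase differed by family and was 1295 in control and 1625 in knockdown libraries for the EAG, ERG and ELK genes, 687 and 1017 for the α2δ genes, and 422 and 393 for the inward rectifiers.

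Genes whose proteins bind, regulate or supply these channels were looked at beside them. Of 64 listed partners 63 were in the table and 51 were tested. Of these, 34 passed the threshold (66.7%, beside 40.7% of all genes), 16 upward and 18 downward, and the median log2 fold change of the 51 was -0.06. The list was chosen with earlier results of these data known, and its share was not read within bands of depth. The 2 shares are therefore not a neutral comparison. Besides those of *Abcc8* and *Rem1*, several of the larger changes were decreases. The sodium-calcium exchanger gene *Slc8a2*, which exports calcium, fell from 108.4 ± 10.4 to 27.1 ± 5.19 (log2 fold change -1.98, SE 0.15, adjusted p = 8.25e-15). The epithelial sodium channel genes *Scnn1g* and *Scnn1a* fell from 396 ± 11.9 to 185 ± 16.4 (log2 fold change -1.10) and from 1262 ± 48.4 to 758 ± 14.6 (log2 fold change -0.73). *Ryr1*, a calcium release channel of the endoplasmic reticulum, was at 19.5 ± 5.10 in control and 7.01 ± 4.14 in knockdown libraries with overlap (log2 fold change -1.51, SE 0.33, adjusted p = 0.00016).

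Of the sodium leak channel complex, *Unc80* and *Fam155a* rose (log2 fold change 0.28 and 0.30) and *Unc79* fell (log2 fold change -0.15), while the pore gene *Nalcn* was at 222 ± 11.7 in control and 247 ± 21.5 in knockdown libraries (log2 fold change 0.16, SE 0.077, adjusted p = 0.089). *Rest*, a repressor of neuronal genes that include many channels, was at 24.8 ± 7.75 in control and 22.6 ± 4.64 in knockdown libraries (log2 fold change -0.11, SE 0.23, adjusted p = 0.72), so that no change in it was detectable at this depth. Of the 12 pump and exchanger genes, all tested, 6 rose and 5 fell, and of 9 tested store-operated and release channel genes 3 rose and 2 fell. Among all genes tested, 20.6% rose and 20.1% fell.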

How the data were processed

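RNA from 10 samples of AtT20 cells, 5 per stable line, was sequenced. Per the paper's methods and the labels, the authors made stranded poly(A) libraries (TruSeq), sequenced paired reads on an Illumina HiSeq, used STAR for alignment to GRCm38 and featureCounts with an Ensembl annotation for counting. Aligner and counter versions and the strand setting of the counting are not given in the sources used here. The authors deposited raw read counts per gene and library, without normalisation. Per-gene errors from counting are largest at low counts. Apart from counting error, the spread between libraries of a line, as a common biological coefficient of variation, was 5.37%.

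Counts were analysed with edgeR 4.0.16 in R 4.3.3: filterByExpr, TMM factors, robust quasi-likelihood fit on the line alone, Benjamini-Hochberg adjustment over 14336 genes, threshold 0.01. SE is the log2 fold change over the square root of F. Symbols were paired with 53620 of 53801 identifiers, and *Fam155b* of the partner list was not matched. Lengths came from exons of GENCODE M21 (GRCm38). Promoter sequences were matched by symbol and were missing for 37 of 138 channel genes. Alternatives were DESeq2 1.42.0, RLE factors, library totals, no low-count filter, a minimum of 10 counts in each library, the replicate block, GC and length offsets (splines with 5 degrees of freedom), leaving out single libraries, a threshold of 0.05, and a 1.5-fold minimum. Only the edgeR fit and test with TMM factors were also run on simulated counts, and the other steps were not.

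The channel genes and lists were chosen with earlier results of these data known. The naming rule took the 12 largest increases and 12 largest decreases among called genes with a mean of at least 20 counts, the highest gene per kilobase of each subfamily, channels known from corticotrophs, the 6 partners with the largest changes, and *Rest*, *Abcc8*, *Dpp6*, *Dpp10*, *Rem2* and *Nalcn*. Other genes were named after their values were seen, and some genes that the rule takes are not reported here.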

Additional observations from a re-analysis of the deposited data

Results flagged for a closer look

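In 5 of the 100 groups of 5 libraries examined for the genes named, 1 library stood apart from the other 4 by Dixon's criterion (0.71 for 5 values). Chance gives about 1 in 20, or 5 of 100. In *Creb3l1*-shRNA1 replicate 2, *Kcnj3* had 897 normalised counts, and the others of its line had 975 to 994. In *Creb3l1*-shRNA1 replicate 4, *Kcnj11* had 17.1 counts beside 10.0 to 11.7 in the others, and *Scn8a* had 518 counts beside 600.4 to 620.2. In non-targeting shRNA replicate 2, *Kcnh1* had 409 counts beside 346 to 353 in the others, and *Kcnk1* had 3380.4 counts beside 3242 to 3280.4. *Kcnj3*, *Kcnj11* and *Kcnh1* kept their call and direction when any 1 library was left out, and *Kcnk1* and *Scn8a* did not pass the threshold with or without these libraries.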

How the results depend on the processing

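Of 50 genes named by the rule and tested, *Creb3l1* included, 38 kept their direction and their side of the threshold in all 17 alternatives. *Kcnd3*, *Ryr1* and *Scn9a* kept theirs in 16 and were not tested where at least 10 counts were required in every library, and 9 genes changed side or direction in at least 1. Of the 38 channel genes called, 30 were called in each of the 17. Of the other 8, 6 lost the call in at least 1 alternative, among them *Kcna2*, *Kcnab2*, *Scn3a* and *Cacna1c*, and *Kcnd3* and *Cacna2d4* were not tested under that minimum. With a change of at least 1.5-fold required, 11 channel genes were called, 6 higher and 5 lower, and 12 partners. Leaving out each library in turn gave 36 to 41 channel genes, 20 to 25 of them higher and 16 to 17 lower, and 32 to 35 partners. DESeq2 called 36, and an adjusted p under 0.05 gave 44. The replicate block gave 39 channel genes (all 38 among them) and 35 partners. Same-numbered libraries did not deviate together (correlations between -0.062 and 0.038), so the numbers were not taken as pairs. With the GC and length offsets 37 were called, 5 being lost (*Scn3a*, *Kcna2* and *Cacna1c* among them) and 4 gained (*Kcnip3*, *Kcnk1*, *Cacna1i* and *Cacnb3*). The cause was not tested. Under these offsets the log2 fold change turned to -0.027 for *Cacna1h* and -0.037 for *Scn8a*, and that of *Rest* was between -0.20 and 0.063 when single libraries were left out, 0.063 being without non-targeting shRNA replicate 3. None of these 3 genes passed the threshold in either fit. Low counts limit what can be seen: 66 channel genes were not tested.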
